A study of Rattus norvegicus with 6 samples.

Results

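Voltage-gated calcium and sodium channels open when a cell membrane depolarises and let calcium or sodium flow in. The genes of their subunits were read across 6 RNA libraries of cultured rat (Rattus norvegicus) brain cells kept for 24 h with polystyrene nanoplastics (PSNPs) or with the near-infrared dye IR-813, in 3 libraries each. Members were chosen by symbol alone: every gene of the count table whose symbol belongs to the families Cacna1, Cacna2d, Cacnb, Cacng, Scn alpha or Scn beta. This gave 40 of 16876 genes, made up of 10 pore-forming calcium channel α1 genes, 4 α2δ genes, 4 calcium channel β genes, 8 γ genes, 10 pore-forming sodium channel α genes and 4 sodium channel β genes. The labels call all 6 libraries primary microglia, shaken off a mixed culture of brain cells. They give no dose, no animal age, no untreated sample and no statement that replicates came from separate cultures, so p-values measure only the spread between these libraries. The titles and treatment labels of the comparison libraries say IR-813 while their columns are headed con, and it is not stated whether these cells were a plain control or carried the dye. All directions are relative to these libraries, called IR-813 as labelled, and effects of the treatments cannot be told apart without an untreated sample.

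As background, the α1 subunit of a calcium channel forms the pore and carries the voltage sensor, while the intracellular β and extracellular α2δ subunits bring it to the membrane and shape its gating. L-type (Cav1), P/Q-, N- and R-type (Cav2) and T-type (Cav3) channels differ in the voltage at which they open, and the Cav2 channels trigger transmitter release at synapses. Most γ proteins of the brain are TARPs, transmembrane proteins that carry AMPA-type glutamate receptors to the synapse. Sodium channel α subunits start the action potential in neurons, and their β subunits are adhesion proteins of the immunoglobulin type that modulate the pore. Glial cells, oligodendrocyte progenitors above all, also transcribe several of these genes.

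The libraries held between 19166605 and 22553507 counts, and levels are given in CPM, counts scaled to library sizes that were adjusted by the TMM method. By count, the rank of the astrocyte gene Gfap was between 7 and 18, whereas that of Aif1, which encodes the microglial protein IBA1, was between 3796 and 7712. Markers of neurons summed to between 238 and 275 CPM with PSNPs and between 647 and 670 CPM with IR-813. Over all tested genes, 20.1% were called lower and 20.9% higher, which is the background for the counts of markers given here. Of the 16 tested neuron markers, 13 fell and 0 rose, and their median log2 fold change was −1.50. Among the 18 listed, the untested vesicular glutamate transporter gene Slc17a7 was at 0 in 2 PSNPs and 2 IR-813 libraries, and no neuron marker was at 0 in all libraries of a group. Oligodendrocyte markers summed to between 3220 and 3710 CPM with PSNPs and between 6060 and 7030 CPM with IR-813 (9 of 9 lower, median −0.96). Progenitor markers summed to between 1390 and 1590 CPM with PSNPs and between 1510 and 1740 CPM with IR-813 (5 lower and 1 higher of 6, median log2 fold change −1.59). Most of that sum was Olig1, which averaged 1100 CPM with PSNPs and 755 CPM with IR-813 and rose by 0.54, whereas Pdgfra averaged 78.8 CPM with PSNPs and 261 CPM with IR-813 and fell by 1.73 on the log2 scale. Microglia markers summed to between 387 and 529 CPM with PSNPs and between 602 and 842 CPM with IR-813 (6 of 8 lower, median −0.99), and astrocyte markers to between 7800 and 8610 CPM with PSNPs and between 6550 and 8360 CPM with IR-813 (5 higher and 1 lower of 10, median 0.38). Fibroblast, pericyte and endothelial markers summed to between 61.6 and 81.7 CPM with PSNPs and between 75.1 and 107 CPM with IR-813, and markers of infiltrating blood cells stayed at or under 0.159 CPM. The part of any of these cell types in the channel results was not tested. In such bulk samples, fewer cells of a type and less RNA per cell cannot be told apart.

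Most channel genes that differed were lower with PSNPs, while Cacna1a, Scn4a, Scn2b and Scn4b were among the higher ones. Of the 40 genes, 31 passed the filter on low counts, and 16 of these fell, 5 rose and 10 did not pass edgeR's quasi-likelihood test at an adjusted p under 0.05. Over all 11679 tested genes, 41.0% were called in either direction. The lower genes were 51.6% of the tested subunits, where 20.1% of all tested genes were lower, and the higher genes were 16.1%, where 20.9% of all tested genes were higher. A fall of more than 2-fold was found for 11 subunits (35.5%, against 8.81% of all tested genes) and a rise of more than 2-fold for 2 (6.45%, against 4.67%). All 3 PSNPs libraries lay below all 3 IR-813 libraries for 19 subunits (61.3%, against 31.4% of all tested genes) and above them for 6 (19.4%, against 30.0%). Groups without overlap in either direction made up 80.6% of the tested subunits and 61.4% of all tested genes. The median log2 fold change was −0.75 over the 31 tested subunits and −0.01 over all tested genes. With scaling by library size alone, 40.5% of the calls among all genes were higher in place of 50.9%, and the subunits then split into 17 lower and 4 higher.

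**Figure D1:**
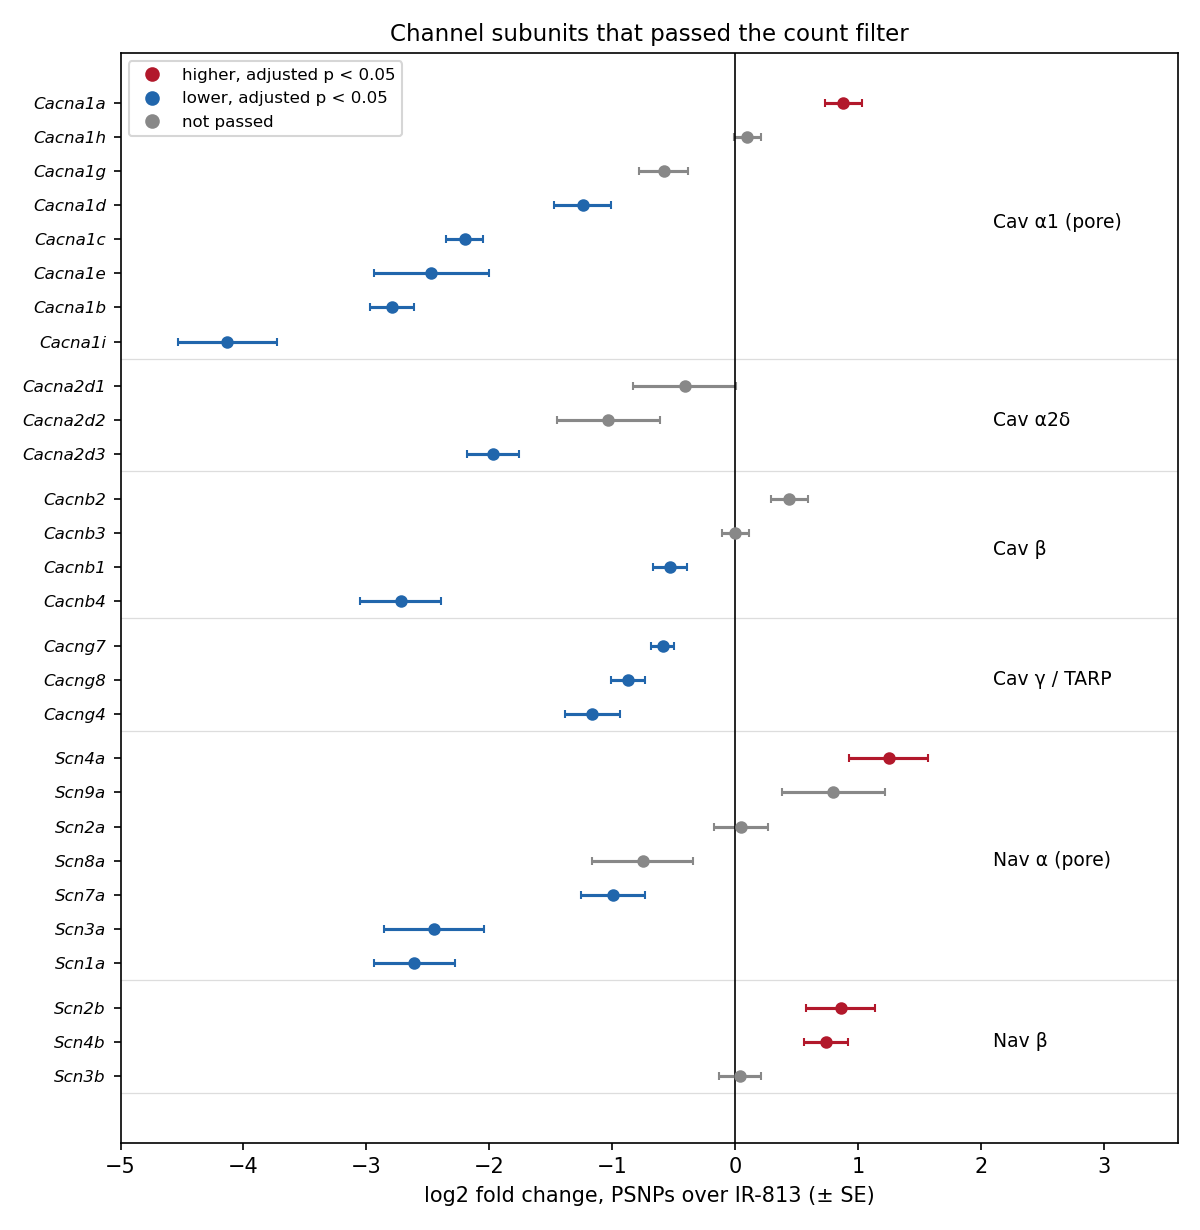
Log2 fold change (PSNPs over IR-813, ± SE, n = 3 libraries each) of 28 channel subunits that passed the count filter, grouped by class; colours give the edgeR call. Scn2b (0.86) and Scn4b (0.74) lie to the right of 0, while Cacna1i (−4.13), Cacna1b (−2.79), Cacnb4 (−2.72) and Scn1a (−2.61) lie farthest to the left; Cacng2, with 0 counts in every PSNPs library, is not drawn.

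The classes moved unequally. Summed over its genes, the sodium channel α class held 111, 96.6 and 55.7 CPM with PSNPs, against 144, 162 and 189 CPM with IR-813. These groups of libraries did not overlap, and the sums were lower with PSNPs. Most of the sum was Scn7a, and without it the class held 28, 34 and 13.9 CPM with PSNPs. With IR-813 it then held 41.4, 40.7 and 39.8 CPM, likewise without overlap. The γ class held 70.9, 68.4 and 55.5 CPM with PSNPs, against 115, 124 and 124 CPM with IR-813, and did not overlap either. The α2δ class held 25.7, 26 and 7.88 CPM with PSNPs, against 29.6, 27.9 and 28.9 CPM with IR-813, also without overlap. The α1 class held 98.5, 111 and 82.1 CPM with PSNPs, against 126, 123 and 111 CPM with IR-813, and the groups met at 111 CPM. The calcium channel β class held 93.7, 91.7 and 97.5 CPM with PSNPs, against 105, 107 and 94.7 CPM with IR-813, and the groups overlapped. For a sum of 3 against 3 libraries the smallest 2-sided exact p is 0.1, so the sums were not tested.

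**Figure D2:**
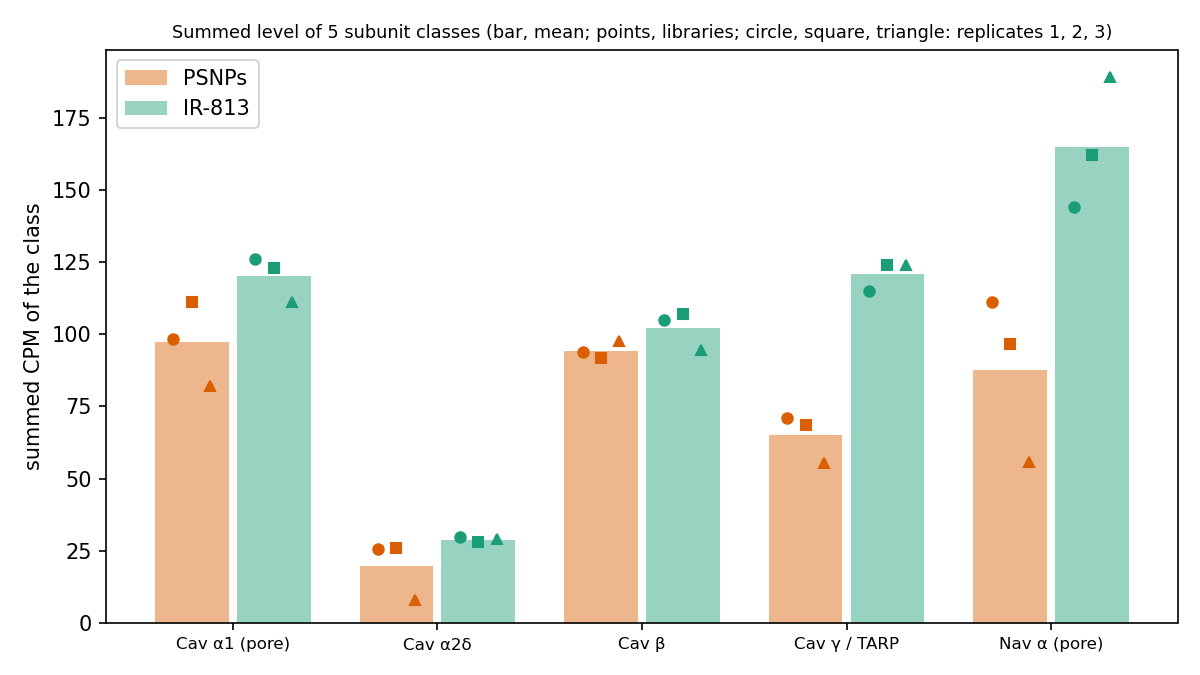
Summed CPM of 5 subunit classes; bars are group means over 3 libraries and points are the libraries (circle, square and triangle for replicates 1, 2 and 3). PSNPs stand left of IR-813 in each pair: the α2δ, γ and sodium channel α classes are lower without overlap. PSNPs replicate 3 is the lowest PSNPs library in the α1, α2δ, γ and sodium channel α classes.

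Among the Cav2 genes, close relatives went in opposite directions. Cacna1a, the pore of the P/Q-type channel, stood at 39.5, 49.8 and 33.7 CPM in the PSNPs libraries and at 22.4, 21.8 and 22.7 CPM in the IR-813 libraries. Cacna1b, the pore of the N-type channel, stood at 2.71, 3.40 and 2.19 CPM with PSNPs and at 20.4, 19.2 and 17.8 CPM with IR-813. Neither gene's groups overlapped: all PSNPs libraries were higher for Cacna1a and lower for Cacna1b. The log2 fold change of Cacna1a was 0.88 ± 0.15 (± SE throughout, adjusted p 0.00424), a 1.84-fold rise. Cacna1b fell by 2.79 ± 0.18 (adjusted p 0.000124), to 0.145 of its level with IR-813. On a scale per transcript length, Cacna1a was between 13.6 and 15.8 times Cacna1b in the PSNPs libraries and between 1.08 and 1.24 times in the IR-813 libraries. Cacna1e, the R-type pore, was low throughout, with 6, 10 and 1 counts with PSNPs and 39, 35 and 31 counts with IR-813, and fell by 2.47 ± 0.47 (adjusted p 0.00644). Summed over the 3 genes, Cav2 stood between 35.9 and 53.7 CPM with PSNPs and between 42.0 and 44.6 CPM with IR-813, so the family's sum did not separate the groups.

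The windows around the annotated starts of Cacna1a and Cacna1b are shown because these related genes moved apart. Each stretch runs from 250 bases before the annotated transcript start and covers 50 bases from it on, from RefSeq's GRCr8 build; the deposited files use the build mRatBN7.2, so these positions cannot be read in them. Capitals mark the GC box GGGCGG, read on both strands, which does not overlap another motif searched.
Cacna1a (GRCr8 chr19:40650419-40650718, minus strand): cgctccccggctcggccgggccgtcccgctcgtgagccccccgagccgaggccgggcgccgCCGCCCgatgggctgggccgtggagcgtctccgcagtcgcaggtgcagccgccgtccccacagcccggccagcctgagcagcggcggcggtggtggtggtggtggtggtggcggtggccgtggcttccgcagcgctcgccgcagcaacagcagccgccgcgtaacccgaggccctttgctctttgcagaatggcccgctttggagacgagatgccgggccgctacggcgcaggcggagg
Cacna1b (GRCr8 chr3:27944236-27944535, minus strand): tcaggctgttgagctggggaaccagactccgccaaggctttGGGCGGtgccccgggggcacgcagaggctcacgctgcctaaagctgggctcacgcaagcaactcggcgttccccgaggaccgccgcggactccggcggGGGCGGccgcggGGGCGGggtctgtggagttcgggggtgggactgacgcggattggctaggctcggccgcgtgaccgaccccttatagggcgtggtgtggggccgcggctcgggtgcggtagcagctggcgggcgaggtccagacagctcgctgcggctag

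Both windows are rich in G and C, with 76.0% for Cacna1a and 72.0% for Cacna1b. Cacna1a held 1 GC box, 189 bases before the start, and Cacna1b held 3, the nearest 99 bases before it. From its annotated start on, the Cacna1a window begins with the start codon atg. That start may therefore be the beginning of the protein code, and the bases before it may be transcript leader in place of promoter. The 2 windows may thus be unlike parts of their genes, and their GC boxes are not a like comparison. Of the 27 subunits whose promoter could be matched by symbol, of which 7 were not tested, 14 held a GC box. This motif is found in 63.6% of the promoters of tested genes and in 36% of those of all genes in the RefSeq table. It stood in 4 of the 9 matched subunits that fell and in 1 of the 4 that rose. A match is a description of the letters in the window.

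The T-type genes also split. Cacna1i stood at 0.598, 0.743 and 0.209 CPM in the PSNPs libraries and at 11.1, 10.2 and 6.20 CPM in the IR-813 libraries. It fell by 4.13 ± 0.40 (adjusted p 0.000480), to 0.0570 of its level with IR-813, the largest fall among the tested subunits with counts in both groups. Its paralogue Cacna1h stood at 43.9, 46.1 and 38.1 CPM with PSNPs and at 41.8, 41.8 and 36.2 CPM with IR-813. These groups overlapped, with a log2 fold change of 0.10 ± 0.11 (adjusted p 0.522). Cacna1g, the third T-type gene, was at 2.85, 2.81 and 1.98 CPM with PSNPs and at 3.45, 3.63 and 4.39 CPM with IR-813 (−0.58 ± 0.20). It missed the threshold (adjusted p 0.0526, and between 0.0372 and 0.301 over the alternatives).

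Both L-type genes with enough counts fell. Cacna1c, the L-type pore of heart and brain, stood at 3.03, 3.50 and 2.77 CPM with PSNPs and at 15.1, 15.1 and 12.5 CPM with IR-813. It fell by 2.20 ± 0.15 (adjusted p 0.000152). Cacna1d, an L-type pore that opens at more negative voltages, stood at 5.06, 4.30 and 2.66 CPM with PSNPs and at 9.89, 9.32 and 9.30 CPM with IR-813, and fell by 1.24 ± 0.23 (adjusted p 0.00547). For both genes every PSNPs library lay below every IR-813 library. Cacna1s, the pore of skeletal muscle, had 11, 5 and 10 counts with PSNPs and 1, 1 and 2 counts with IR-813 and did not pass the count filter. Without a filter it was called higher (log2 fold change 2.72, adjusted p 0.00794), on 26 counts with PSNPs and 4 with IR-813. Cacna1f, the retinal L-type pore, had at most 1 count in a library.

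Cacna1h and Cacna1a held most of the α1 transcripts in both groups, with a larger share with PSNPs. Levels were compared between genes on the scale per transcript length. It was taken from the deposited log2 values after unlogging and rescaled to the same sum in each library. Unlike CPM it has no TMM adjustment, so its levels serve to compare genes within a group and not the groups. For example, Cacna1h averaged 42.7 CPM with PSNPs and 40 CPM with IR-813, the reverse of its order per length. With PSNPs, Cacna1h (7.78 ± 1.50, SD, n = 3) and Cacna1a (6.61 ± 1.88) led and lay within each other's spread. They were followed far below by Cacna1d (0.729 ± 0.275), Cacna1c (0.538 ± 0.113), Cacna1g (0.477 ± 0.132) and Cacna1b (0.465 ± 0.156), which did not differ beyond their spread, and then by Cacna1i (0.116 ± 0.0687), Cacna1s (0.100 ± 0.0303) and Cacna1e (0.0618 ± 0.0532), which lay within each other's spread. With IR-813 the order was Cacna1h (8.33 ± 0.655), Cacna1a (4.09 ± 0.0984), Cacna1b (3.62 ± 0.215), Cacna1c (2.83 ± 0.289), Cacna1i (2.29 ± 0.651), Cacna1d (1.95 ± 0.0700), Cacna1g (0.816 ± 0.109), Cacna1e (0.378 ± 0.0362) and Cacna1s (0.0164 ± 0.00723). Cacna1f was the lowest in both groups. With IR-813 the neighbours Cacna1c and Cacna1i, and Cacna1i and Cacna1d, lay within each other's spread. All these spreads are between libraries and leave out that the genes were measured in the same libraries. For some pairs the order was the same in each library, such as Cacna1h above Cacna1a and Cacna1c above Cacna1b with PSNPs. Cacna1a and Cacna1h together made up between 83.9% and 86.9% of the α1 level with PSNPs and between 50.1% and 52.4% with IR-813. The Cav1 genes made up between 7.5% and 9.2% with PSNPs and between 19.7% and 19.8% with IR-813.

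**Figure D3:**
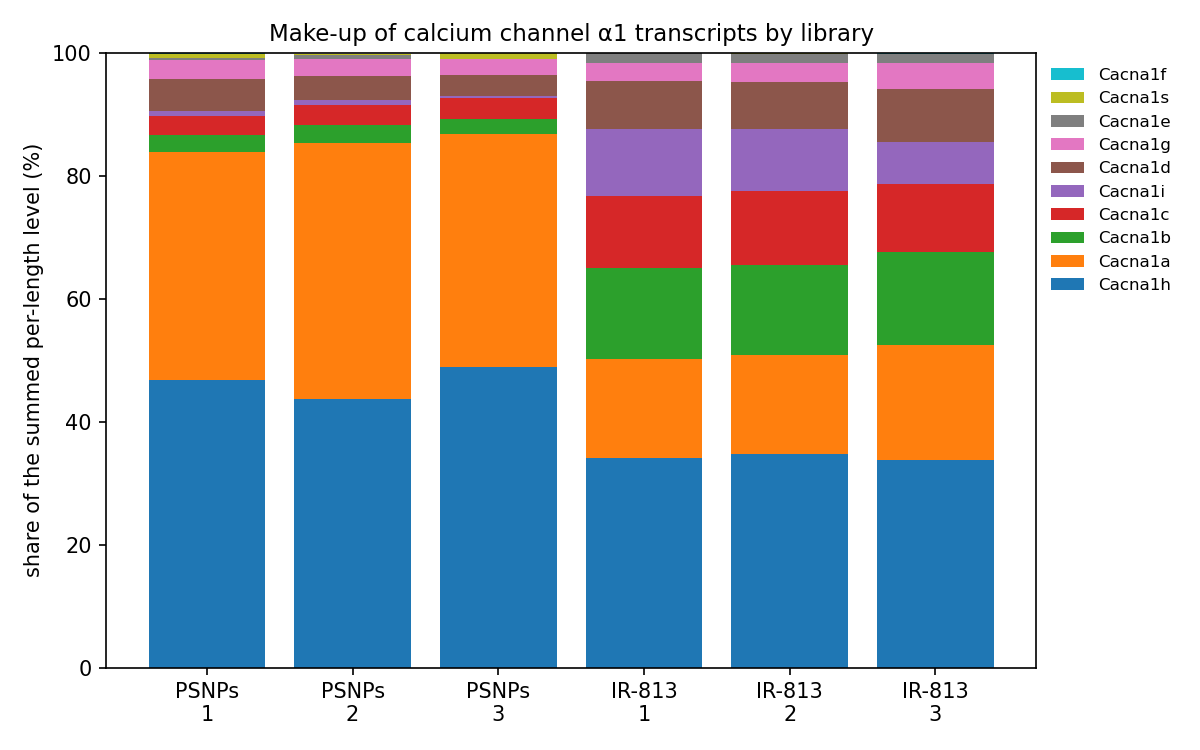
Share of the summed per-length level of the 10 α1 genes in each library, in percent, with the PSNPs libraries on the left. Cacna1h and Cacna1a fill between 83.9% and 86.9% of each PSNPs bar and between 50.1% and 52.4% of each IR-813 bar, and Cacna1b, Cacna1c and Cacna1i take visibly less with PSNPs.

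Of the α2δ genes, Cacna2d3 fell and the others did not pass. Cacna2d3 stood at 0.552, 0.796 and 0.835 CPM with PSNPs and at 3.13, 2.75 and 2.64 CPM with IR-813, and fell by 1.97 ± 0.21 (adjusted p 0.000720). Cacna2d1, a target of gabapentin, was the most abundant of the class. It stood at 24.2, 24.3 and 6.73 CPM with PSNPs and at 24.7, 24.3 and 24.7 CPM with IR-813, so that PSNPs replicate 3 alone stood apart. Its log2 fold change was −0.41 ± 0.42 (adjusted p 0.461), and −0.02 without PSNPs replicate 3. Cacna2d2, the other gabapentin target, had 17, 17 and 6 counts with PSNPs and 39, 18 and 33 counts with IR-813, groups that overlapped (−1.03 ± 0.42, adjusted p 0.0898). Cacna2d4 had at most 3 counts in a library.

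Among the calcium channel β genes, the least abundant fell the most. Cacnb4 stood at 0.689, 0.902 and 0.261 CPM with PSNPs and at 4.52, 3.77 and 4.07 CPM with IR-813, and fell by 2.72 ± 0.33 (adjusted p 0.00114). Cacnb1 stood at 24.1, 25.0 and 28.2 CPM with PSNPs and at 38.7, 42.2 and 30.9 CPM with IR-813, without overlap, and fell by 0.53 ± 0.14 (adjusted p 0.0208). Its adjusted p lay between 0.00534 and 0.0897 over the alternatives and missed the threshold in 6 of 14, among them the fits without IR-813 replicate 1 (0.0777) or 2 (0.0897) and without PSNPs replicate 1 (0.0682) or 2 (0.0589). Cacnb3, per length the most abundant β gene, averaged 41.8 ± 5.64 CPM with PSNPs and 41.6 ± 0.824 CPM with IR-813 (SD, n = 3 each). Its log2 fold change was 0 ± 0.11, and its groups overlapped. Cacnb2 stood at 30.1, 27.6 and 20.8 CPM with PSNPs and at 19.2, 19.9 and 18.6 CPM with IR-813 (0.44 ± 0.15, adjusted p 0.0508). Without PSNPs replicate 3 its value was 0.59 with an adjusted p of 0.000431, the lowest over the alternatives, of which 0.146 was the highest.

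All 4 γ genes that were tested fell, and all 4 are TARPs. Cacng4, an AMPA receptor partner that is abundant in glial progenitors, stood at 33.0, 31.3 and 18.4 CPM with PSNPs and at 54.9, 60.7 and 68.9 CPM with IR-813. Cacng7 stood at 33.3, 32.8 and 32.4 CPM with PSNPs and at 51.2, 51.7 and 45.5 CPM with IR-813. These genes dominated their class, with between 94.2% and 95.6% of its per-length level with PSNPs and between 93.1% and 94.2% with IR-813. Cacng4 fell by 1.16 ± 0.22 (adjusted p 0.00667), Cacng7 by 0.59 ± 0.09 (adjusted p 0.00279) and Cacng8, at 4.41, 4.14 and 4.44 CPM with PSNPs and 7.11, 8.80 and 7.82 CPM with IR-813, by 0.87 ± 0.14 (adjusted p 0.00309). Cacng2, which encodes stargazin, had 0 counts in each PSNPs library and 17, 20 and 10 counts in the IR-813 libraries (adjusted p 0.00443). Against a floor of 3 counts over the PSNPs group it was at least 14.3-fold lower. Most markers of neurons, progenitors, oligodendrocytes and microglia were lower over the same libraries, while those of astrocytes were more often higher than lower. The part of any of these cell types in the γ values was not tested.

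Cacng3, a TARP of cortical neurons in rodents, likewise had 0 counts in each PSNPs library, against 18, 14 and 5 counts with IR-813. It did not pass the count filter, and against the same floor it was at least 11.3-fold lower. Cacng5 had 4, 0 and 5 counts with PSNPs and 9, 20 and 20 with IR-813. Without a filter both were called lower, with adjusted p of 0.0126 for Cacng3 and 0.0348 for Cacng5. The muscle γ genes Cacng1 and Cacng6 had at most 3 counts in a library. The promoters of Cacng2 and Cacng3 are shown as those of the genes with no count in any PSNPs library; capitals mark the TATA box TATAAA, the GC box and the left part of RE1 (the element bound by REST, a repressor of neuronal genes), searched as TTCAGCACC, each on both strands and without overlap.
Cacng2 (GRCr8 chr7:111577708-111578007, minus strand): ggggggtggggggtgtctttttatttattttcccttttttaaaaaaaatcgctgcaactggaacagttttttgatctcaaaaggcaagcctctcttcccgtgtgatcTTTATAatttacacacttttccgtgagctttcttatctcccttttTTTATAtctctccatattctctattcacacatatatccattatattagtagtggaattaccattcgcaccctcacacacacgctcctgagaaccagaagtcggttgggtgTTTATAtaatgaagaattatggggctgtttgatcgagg
Cacng3 (GRCr8 chr1:186632312-186632611, plus strand): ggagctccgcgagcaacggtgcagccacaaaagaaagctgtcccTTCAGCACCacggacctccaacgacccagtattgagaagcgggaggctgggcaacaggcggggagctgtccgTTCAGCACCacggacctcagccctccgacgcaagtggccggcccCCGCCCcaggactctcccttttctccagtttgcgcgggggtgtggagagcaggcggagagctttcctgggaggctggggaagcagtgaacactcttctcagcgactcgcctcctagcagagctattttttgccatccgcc

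The windows differ in composition, with 39.0% G and C for Cacng2 and 63.0% for Cacng3. The left part of RE1 occurred at 2 places in the Cacng3 window, 206 and 134 bases before the start. It was found in no other matched subunit, in 0.404% of the promoters of all genes in the RefSeq table and in 0.474% of those of tested genes. The letters of the TATA box stood in Cacng2 and in 1 other matched subunit, against 6.96% of the promoters of tested genes and 15.3% of all. In Cacng2 they lay 143 and 98 bases before the start and 12 bases past it. Each of these matches was in reverse orientation (TTTATA), so they do not show a TATA box that points at the gene. The cyclic AMP response element TGACGTCA and the right part of RE1 were in 0 of the 27 windows. They are in 3.37% and 0.304% of the promoters of tested genes and in 2% and 0.157% of those of all genes.

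The sodium channel α genes fell or did not pass, apart from Scn4a. Scn7a, which encodes the sodium-sensing channel Nax of glial cells, made up between 67.3% and 77.9% of the class per length with PSNPs and between 73.4% and 80.8% with IR-813. It stood at 83.0, 62.7 and 41.8 CPM with PSNPs and at 102, 121 and 149 CPM with IR-813, and fell by 0.99 ± 0.26 (adjusted p 0.0202). The call was lost without IR-813 replicate 2 (adjusted p 0.0582) and without IR-813 replicate 3 (adjusted p 0.0741), the highest over the alternatives, with 0.000485 the lowest. Scn1a, a channel of inhibitory neurons, stood at 0.781, 1.01 and 0.313 CPM with PSNPs and at 4.88, 3.77 and 4.30 CPM with IR-813, and fell by 2.61 ± 0.33 (adjusted p 0.00131). Scn3a, expressed mainly in the developing brain, stood at 0.506, 0.531 and 0.104 CPM with PSNPs and at 2.33, 2.28 and 1.76 CPM with IR-813, and fell by 2.45 ± 0.41 (adjusted p 0.00375). For each of these genes the groups did not overlap. Most markers of neurons, progenitors, oligodendrocytes and microglia were lower with PSNPs too, while those of astrocytes were more often higher than lower. The part of any of these cell types in the sodium channel values was not tested.

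Scn2a, the main channel of young axons, overlapped between groups, with 3.45, 5.78 and 4.02 CPM with PSNPs and 4.21, 4.80 and 3.75 CPM with IR-813 (0.05 ± 0.22, adjusted p 0.867). Scn8a, the channel of mature axon initial segments, stood at 11.7, 16.3 and 4.23 CPM with PSNPs and at 18.7, 17.5 and 17.9 CPM with IR-813 (−0.75 ± 0.41, adjusted p 0.185). Its value was −0.37 without PSNPs replicate 3, the lowest library. Scn4a, the channel of skeletal muscle, had 32, 34 and 17 counts with PSNPs and 11, 14 and 13 counts with IR-813, and rose by 1.25 ± 0.32 (adjusted p 0.0193). The call held in 7 of 13 alternatives, with adjusted p between 0.00158 and 0.0980, and was lost without IR-813 replicate 1 (0.0758), 2 (0.0562) or 3 (0.0582) and without PSNPs replicate 1 (0.0566) or 2 (0.0511). Scn9a, a channel of peripheral sensory neurons, stood at 3.86, 3.34 and 1.25 CPM with PSNPs and at 1.21, 2.05 and 1.62 CPM with IR-813 (0.80 ± 0.42, adjusted p 0.165). Without PSNPs replicate 3 its value was 1.15 (adjusted p 0.00417, in a range from 0.00417 to 0.411). The other sensory neuron genes, Scn10a and Scn11a, had at most 2 counts in a library. The α genes of the brain are similar in sequence, and how shared reads were assigned is not stated, so the split between them is uncertain.

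Of the sodium channel β genes described here, Scn4b and Scn2b rose and Scn3b did not pass. Scn4b, whose product takes part in resurgent sodium current, stood at 8.96, 6.53 and 6.31 CPM with PSNPs and at 4.74, 4.19 and 4.16 CPM with IR-813, and rose by 0.74 ± 0.18 (adjusted p 0.0160). It missed the threshold without IR-813 replicate 2 or 3 (adjusted p 0.0706 and 0.0587, in a range from 0.00269 to 0.0706). Scn2b, whose product binds α subunits through a disulfide bond, stood at 4.69, 3.45 and 2.45 CPM with PSNPs and at 2.33, 1.96 and 1.57 CPM with IR-813, and rose by 0.86 ± 0.28 (adjusted p 0.0447). That call was lost in 7 of 14 alternatives, with adjusted p between 0.00488 and 0.167. Among them were the fits without IR-813 replicate 1 (0.0735), 2 (0.124) or 3 (0.137) and without PSNPs replicate 1 (0.126) or 2 (0.0770). Scn3b averaged 16.8 ± 3.62 CPM with PSNPs and 16.3 ± 1.00 CPM with IR-813 (SD, n = 3 each), with a log2 fold change of 0.04 ± 0.17 and overlapping groups.

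**Figure D4:**
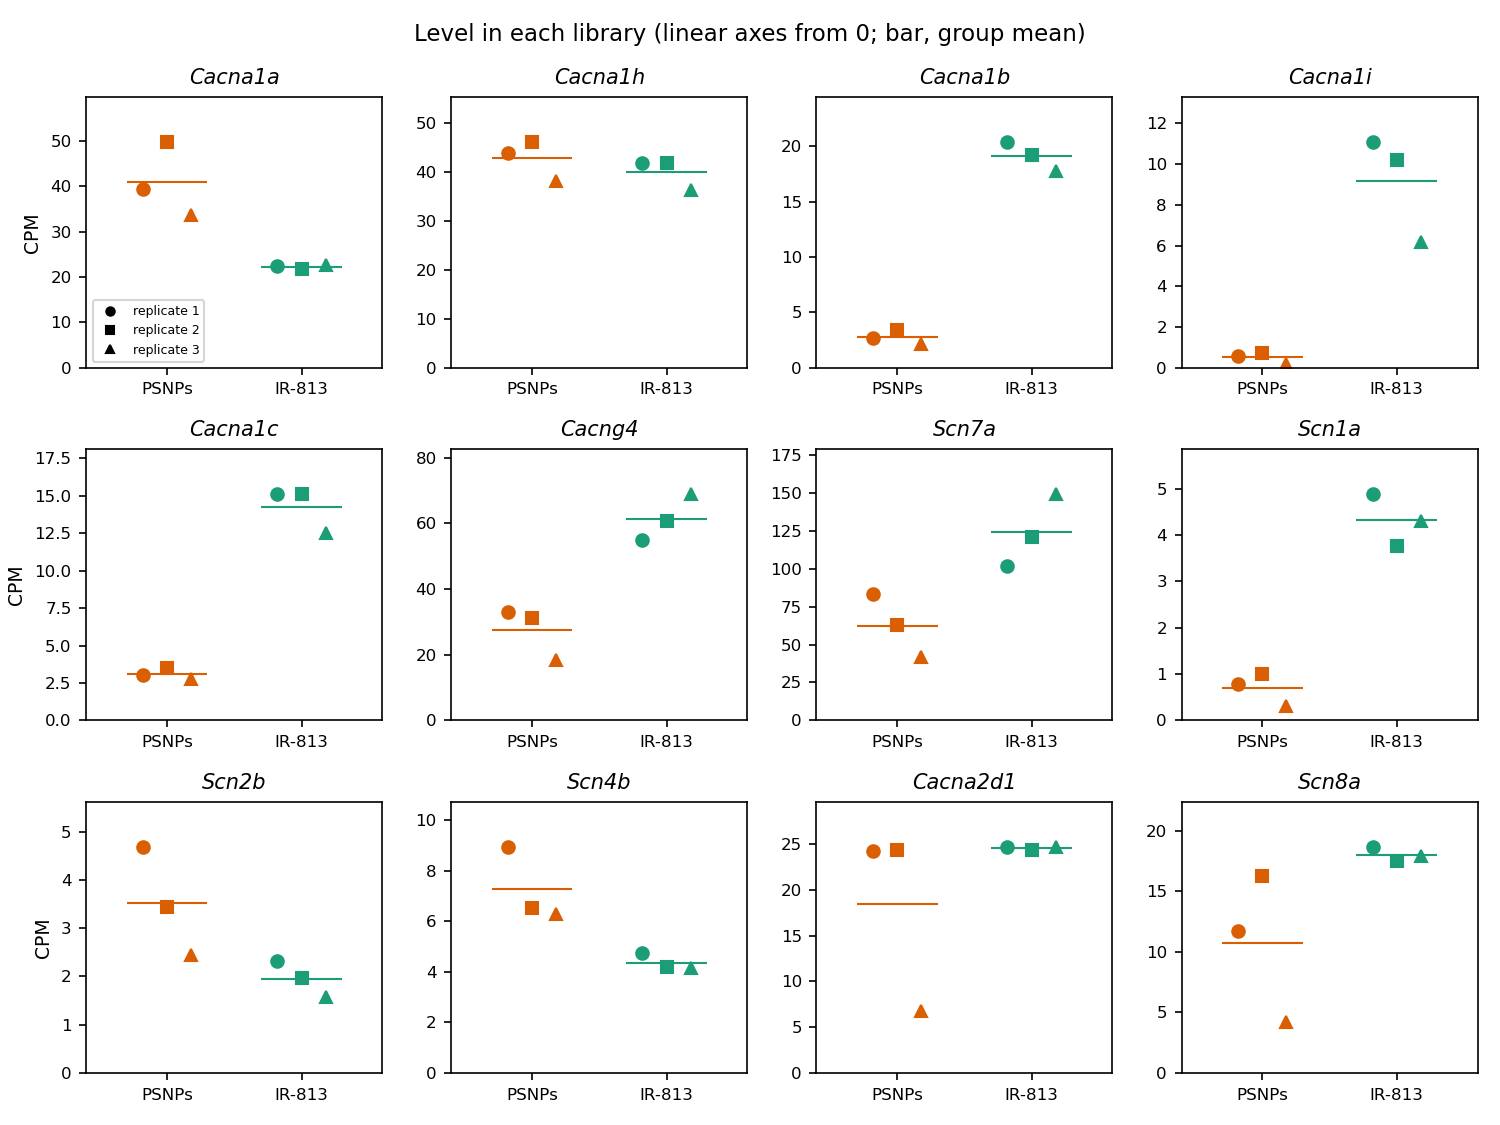
CPM in each library for 12 subunits, on linear axes that start at 0, with PSNPs left of IR-813, a bar at each group mean (n = 3) and circle, square and triangle for replicates 1, 2 and 3. The groups are far apart for Cacna1b, Cacna1i, Cacna1c and Scn1a and overlap for Cacna1h, and for Cacna2d1 PSNPs replicate 3 alone is low (6.73 CPM).

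PSNPs replicate 3 stood apart in a way that followed transcript length. A length proxy, the count divided by the unlogged deposited value, put 22 of the 31 tested subunits into the longest quartile of all tested genes. In that quartile the median gene was at −0.40 on the log2 scale in PSNPs replicate 3 relative to replicates 1 and 2, and in the shortest quartile at 0.33. PSNPs replicate 3 was the lowest PSNPs library for 24 of 31 subunits, against 44.1% of all tested genes, which are of all lengths. Not every subunit followed length. Of the short ones, Cacng4 (percentile 8.8 of the proxy) was at −0.80 and Scn2b (percentile 6.5) at −0.73. Cacng7 (−0.03) and Cacng8 (0.05), also short, were near 0. The median log2 fold change between the treatments was −0.26 in the longest quartile and 0.21 in the shortest, or −0.12 and 0.12 without PSNPs replicate 3. Without that library 25 subunits were called, among them all 21 called with it. With an offset that removes the trend with length in each library, 15 subunits were lower and 7 higher, and 19 of the 21 calls were kept. Cacnb1 (−0.40, adjusted p 0.0730) and Scn2b (0.62, adjusted p 0.167) were then lost, and Cacna1h (0.49, adjusted p 0.0384), Cacnb2 (0.62, adjusted p 0.00165) and Scn9a (1.12, adjusted p 0.0133) were called higher.

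**Figure D5:**
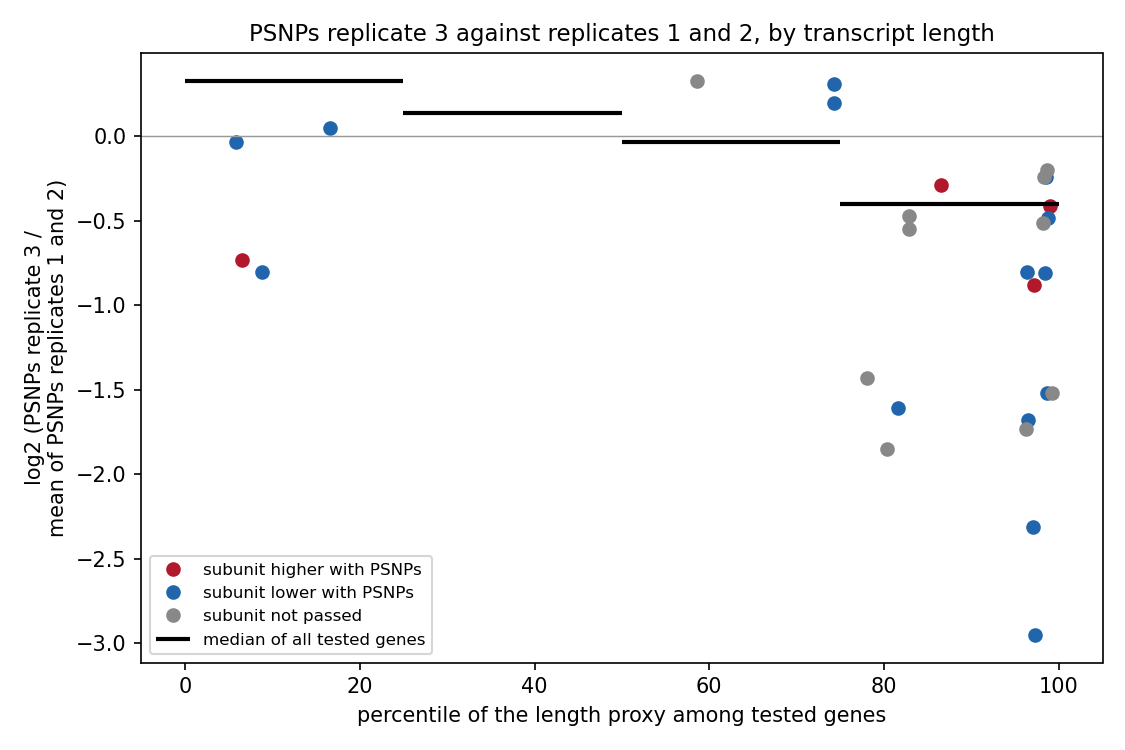
Level of 28 tested subunits in PSNPs replicate 3 relative to the mean of PSNPs replicates 1 and 2 (log2), against the percentile of its length proxy among all tested genes; black lines are the medians of all tested genes by quartile of length (0.33, 0.14, −0.03 and −0.40). Most long subunits lie below 0, and several, such as Cacna1e (−2.95) and Cacna2d1 (−1.85), lie far below the median of the longest quartile. That quartile spans genes of unlike length, and the value of Cacna1e rests on 1 count in replicate 3 against 6 and 10 in replicates 1 and 2. The short subunits Cacng4 (−0.80) and Scn2b (−0.73) also lie well below 0.

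The proteins that anchor and regulate these channels gave further values. Of 9 tested sodium channel partners and axon initial segment genes, 6 fell, 1 rose and 2 did not pass, where 20.1% of all tested genes were lower and 20.9% higher. Ank3, which encodes the scaffold ankyrin-G, fell by 1.85 ± 0.21 (18.1 ± 4.97 CPM with PSNPs and 65.2 ± 4.19 CPM with IR-813), and the adhesion gene Nfasc fell by 1.58 ± 0.18 (258 ± 59.7 CPM with PSNPs and 774 ± 69.6 CPM with IR-813; SD, n = 3 each). Sptbn4, a spectrin of the initial segment, fell by 1.14 ± 0.13 and Fgf11, of the family that binds the sodium channel tail, by 2.11 ± 0.25. Fgf13, named after its value was seen, was the member that rose (0.63 ± 0.14). The tested genes of the sodium leak channel complex, Nalcn (−1.51 ± 0.30) and Unc79 (−0.71 ± 0.22), both fell. The adjusted p of these genes by edgeR's test lay at or under 0.0383.

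Of 18 tested calcium channel regulators, 4 were higher, 3 lower and 11 not passed, with a median of −0.06; the number called was near the background of 41.0% and is no result about the list. Rims1, which tethers calcium channels at release sites, fell by 2.96 ± 0.36 and stood at 0.750 ± 0.440 CPM with PSNPs and 5.89 ± 0.212 CPM with IR-813. The calcium-binding protein gene Cabp1 fell by 3.05 ± 0.40 and the kinase gene Camk2b by 0.74 ± 0.08. Gem, a small GTPase that inhibits calcium channels, rose by 0.76 ± 0.12. Also higher were the calmodulin gene Calm3 (0.64) and Cbarp, listed in the table as Dos (0.27), named after their values were seen.

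Of 16 genes of calcium release, store-operated entry and extrusion, 5 fell, 2 rose and 9 did not pass, with a median of −0.14, and the number called was likewise near the 41.0% over all genes. The sodium-calcium exchanger genes Slc8a3 and Slc8a2 fell by 2.05 ± 0.14 and 1.25 ± 0.18, and the calcium pump gene Atp2b2 by 0.90 ± 0.16. Orai3, a pore of store-operated channels, rose by 0.91 ± 0.11 (47.9 ± 6.07 CPM with PSNPs and 25.5 ± 0.737 CPM with IR-813), and Orai1 was the other that rose (0.44 ± 0.13). Among 10 tested AMPA receptor genes, the partners of the TARPs, 5 fell, 3 rose and 2 did not pass, against the same 20.1% lower and 20.9% higher over all genes. Gria1 stood at 0.904 ± 0.166 CPM with PSNPs and 8.62 ± 0.681 CPM with IR-813 and fell by 3.25 ± 0.18, Gria4 fell by 2.70 ± 0.18, Gria2 by 1.12 ± 0.14 and the auxiliary protein gene Shisa7 by 2.56 ± 0.11. Gria3 (0.65), Cnih2 (0.51) and Cnih3 (0.73), named after their values were seen, rose. Over the 55 tested genes of all 5 lists together 21 fell and 10 rose, and the number that rose was near the 20.9% of all tested genes; with library size alone 23 fell and 6 rose.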

How the data were processed

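RNA was measured in 6 libraries, grouped and numbered by their titles. Libraries were made from polyadenylated RNA, per the labels' protocols, and bcl2fastq and the build mRatBN7.2 are named in the submitters' processing notes; aligner, counter, annotation and strandedness were not given in the sources used here. In the deposited table are whole-number counts per gene symbol. Its columns are named con and NPS and were joined to IR-813 and PSNPs through the per-library files, in which the authors deposited log2 values of unstated scaling. With 1 subtracted after unlogging, these were proportional to the count within 0.05 log2 units for at least 99.0% of genes with 10 or more counts in each library, which gave the length proxy and the per-length levels.

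All genes were fitted together: filterByExpr (11679 genes left), TMM scaling and edgeR 4.0.16 (R 4.3.3) quasi-likelihood tests with Benjamini-Hochberg adjustment, called at an adjusted p under 0.05 with no minimum fold. The standard error is the log2 fold change divided by the square root of F. The common biological coefficient of variation was 0.159. DESeq2 1.42.0, limma 3.58.1 on the log2 values, other scalings and filters, a replicate block, leaving out each library and, added after seeing the data, a length offset were alternatives. The labels name no molecular identifiers, and floors cover counting error only. All subunits enter the counts, though a few items are not reported here, and of each partner list the 4 members with the smallest p were named. Members, lists and markers were chosen with earlier results of these data known. Further listed genes were not analysed here. Promoters came from RefSeq (GRCr8), matched by symbol for 27 of 40 subunits, and motifs were chosen after the values were seen.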

Additional observations from a re-analysis of the deposited data

How the results depend on the processing

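Of the 21 called subunits, 15 were called in every one of the 14 alternatives that tested them, and 6, among them Cacnb1, Scn2b, Scn4a, Scn4b and Scn7a, were lost in at least 1; Cacng2, Scn4a and the uncalled Cacna2d2 were not tested with the filter of at least 1 CPM in 3 libraries. Leaving out 1 library each gave between 13 and 18 lower and between 3 and 7 higher subunits, between 15 and 26 lower and between 4 and 13 higher partner genes, and between 1473 and 3478 lower and between 1339 and 3591 higher genes of all. With library size alone, 6 partner genes were higher in place of 10. Subunits near 0 changed sign: with library size alone Cacnb3 was at −0.07, Scn2a at −0.02 and Scn3b at −0.04. Cacnb3 lay at 0 with the replicate block and with the 1 CPM filter and between −0.11 and 0.07 without 1 library, Scn2a between −0.18 and 0.21 and Scn3b between −0.10 and 0.20. The cause was not tested. Same-numbered libraries shared little of their deviations (correlations 0.01, 0.02 and 0.14, and up to 0.22 between libraries of unlike number). With 3 libraries in each group this cannot show whether the numbers pair the samples, which stays unknown. The edgeR fit with a replicate block gave 15 lower and 5 higher subunits and lost Cacnb1 (adjusted p 0.0527). On the deposited log2 scale the pseudocount of 1 shrank low genes, with Cacna1i at −1.12. Subunits with few counts, such as Cacna1e, Cacng2 and Scn4a, are limited by depth.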
